A study of Rattus norvegicus with 44 samples.

Results

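T and B lymphocytes were followed in the kidney through 9 marker genes: Cd3e, Cd3d, Cd3g, Cd2, Cd4 and Cd8a for T cells, and Cd79a, Cd79b and Ms4a1 for B cells. Their rows were taken by gene symbol. Of the 9 symbols, 8 had a row among the 32883 entries of the expression file, and Cd79a had none. All 8 passed the filter on low values, which left 13482 entries for testing.

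Each of 44 libraries came from the kidney of a different obese ZSF1 rat, a model in which obesity and diabetes come with worsening kidney function. All rats were male, carried a telemetry implant and received drug or vehicle in the feed for 6 months from 22 weeks of age. The groups were Enalapril (3 mg/kg/day, n = 9), the combination of Enalapril (3 mg/kg/day) with Compound 1 (1 mg/kg/day, n = 12), Compound 1 alone (raised during the study, 1 mg/kg/day at first and 3 mg/kg/day later, n = 12), and Vehicle (n = 11). Enalapril inhibits angiotensin-converting enzyme, and Compound 1 stimulates soluble guanylate cyclase, the receptor for nitric oxide. The combination and Compound 1 alone thus differed in the dose of Compound 1 as well as in Enalapril. Kidney tissue was not sorted, so a transcript level sums over all cells, and fewer cells of a type cannot be told apart from less RNA per cell.

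T cells recognise peptide bound to MHC molecules through an antigen receptor that signals by the CD3 chains epsilon, delta and gamma. CD4 and CD8 are coreceptors that divide T cells into a helper and a cytotoxic class, and CD2 is an adhesion molecule of T cells and NK cells. In the rat, monocytes and macrophages also express CD4, and some NK cells express CD8 alpha, so neither transcript is limited to T cells. B cells signal from their surface immunoglobulin through CD79a and CD79b, and Ms4a1 encodes CD20, a membrane protein of mature B cells that plasma cells lack. In the diseased kidney, T and B cells gather in the interstitium and around vessels, at times as follicle-like clusters held together by the chemokines CCL19, CCL21 and CXCL13.

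Levels were deposited as FPKM, a read density corrected for the length of the transcript and the size of the library, so that genes can be compared with each other. In order of level the 8 transcripts ran Cd4, Cd3e, Cd2, Cd3g, Cd3d, Cd79b, Cd8a and Ms4a1. Cd4 lay above Cd3e in 44 of 44 rats, Cd3e above Cd2 in 43, and Cd8a above Ms4a1 in 44. Neighbours in the middle of this order were not separated: Cd2 exceeded Cd3g in 31 rats and Cd3g exceeded Cd3d in 24. Cd3d exceeded Cd79b in 38 rats, and Cd79b exceeded Cd8a in 30, of which 3 were among the 9 rats given Enalapril and 8 among the 11 given Vehicle.

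Enalapril alone and the combination lowered lymphocyte transcripts, and Compound 1 alone did not change any of them past the test. A gene was counted as a differentially expressed gene (DEG) when limma, run on log2(FPKM + 0.1) across all 13482 entries, gave a Benjamini-Hochberg adjusted p below 0.05 and the fold was over 1.5 or less than 0.66. By this measure 5 of the 8 markers were lower with Enalapril than with Vehicle (Cd3e, Cd3d, Cd3g, Cd8a and Cd79b), where 4.04% of all entries were. With the combination 6 of 8 were lower than with Vehicle (Cd3e, Cd3g, Cd2, Cd8a, Cd79b and Ms4a1), where 6.39% of all entries were. With Compound 1, 0 of 8 were lower in limma, where 0.156% of all entries were, and 1 of 8 had an unadjusted p under 0.05, where 13.3% of all entries had one. No marker was called higher in any of these comparisons.

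**Figure D1:**
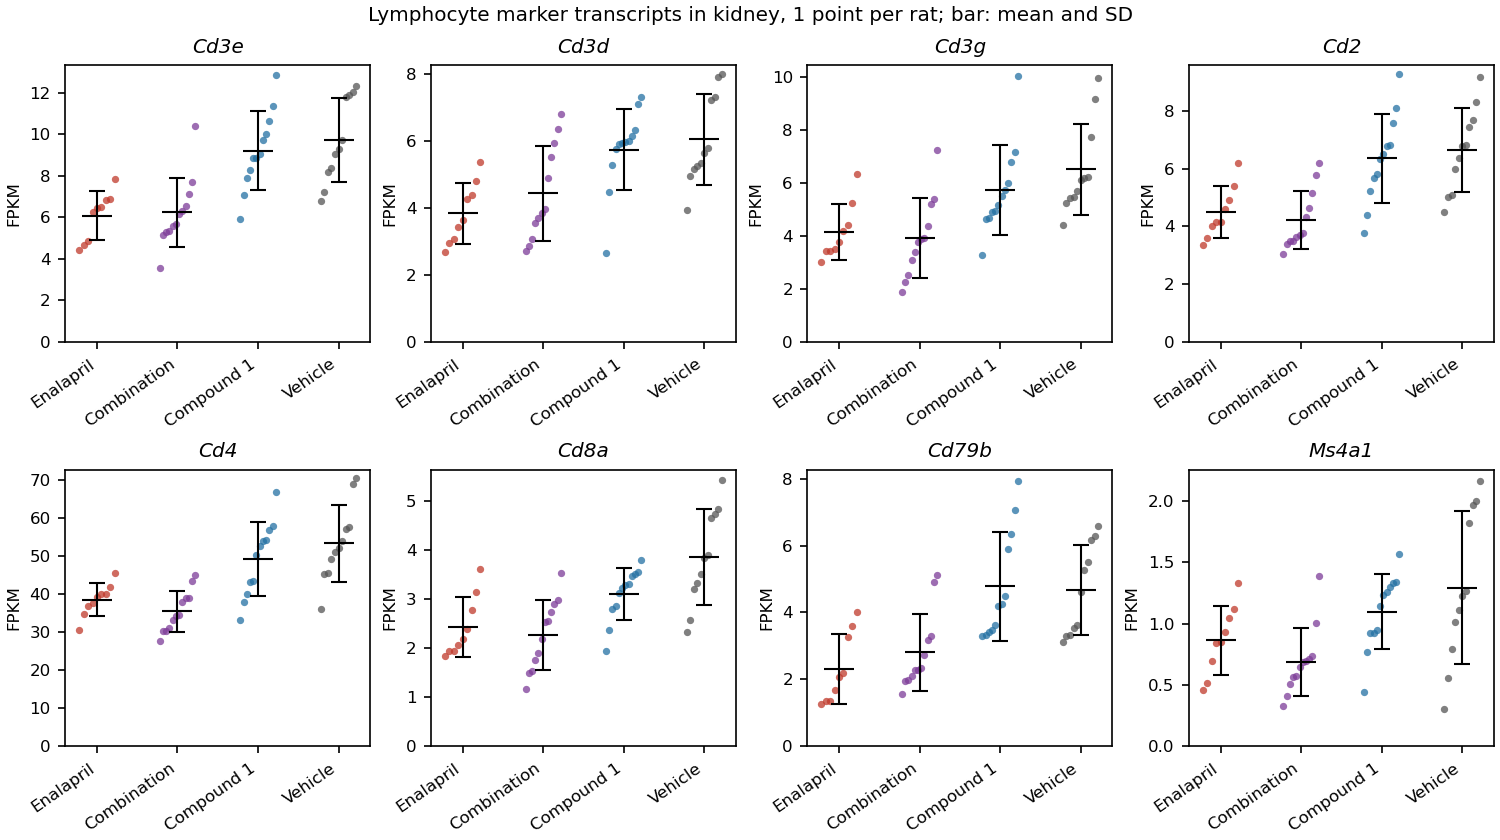
Level of each of the 8 lymphocyte markers in FPKM (vertical axes, starting at 0), with 1 point per rat and the mean and SD of each group as bars, for Enalapril (n = 9), the combination (n = 12), Compound 1 (n = 12) and Vehicle (n = 11). The Enalapril and combination means sit lower than the Compound 1 and Vehicle means in every panel, and the points of the groups overlap in every panel.

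The median over all tested entries was shifted downward. Against Vehicle, the median log2 fold change over the tested entries was -0.15 for Enalapril, -0.18 for the combination and -0.07 for Compound 1, and over the 8 markers it was -0.63, -0.69 and -0.09 in the same order. Relative to the median entry the markers therefore stood at -0.48 with Enalapril and at -0.51 with the combination. All tested markers had negative log2 fold changes with Enalapril and with the combination under every scaling, filter and set of rats tried.

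Cd3e, which encodes the epsilon chain of CD3, had a lowest, median and highest level of 4.44, 6.42 and 7.87 FPKM with Enalapril, 3.53, 5.91 and 10.4 FPKM with the combination, 5.90, 8.96 and 12.9 FPKM with Compound 1, and 6.80, 9.27 and 12.3 FPKM with Vehicle. The lowest Vehicle rat lay above 6 of 9 Enalapril rats and above 9 of 12 combination rats, but above only 1 of 12 Compound 1 rats. Cd3e averaged 6.08 ± 1.16 FPKM with Enalapril (SD, n = 9), 6.23 ± 1.68 FPKM with the combination (n = 12), 9.21 ± 1.89 FPKM with Compound 1 (n = 12) and 9.70 ± 2.02 FPKM with Vehicle (n = 11). The log2 fold change against Vehicle was -0.66 (SE 0.12, limma adjusted p = 0.000842) with Enalapril and -0.65 (SE 0.13, adjusted p = 0.000574) with the combination. In the rats given Compound 1 alone it was -0.07, with a 95% confidence interval from -0.32 to 0.17.

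Cd3d, the delta chain, ran from 2.69 to 5.37 FPKM with Enalapril (median 3.63), from 2.72 to 6.79 FPKM with the combination (median 3.92), from 2.66 to 7.30 FPKM with Compound 1 (median 5.95) and from 3.93 to 7.99 FPKM with Vehicle (median 5.62). All 9 Enalapril rats but 9 of 12 combination rats were below the Vehicle median. Its log2 fold change was -0.64 (SE 0.14, limma adjusted p = 0.00212) with Enalapril. With the combination it was -0.47 (SE 0.15, limma adjusted p = 0.0155), a fold of 0.722 that did not reach the threshold, so Cd3d was not a DEG there.

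Cd3g, the gamma chain, ran from 3.03 to 6.35 FPKM with Enalapril (median 3.78), from 1.86 to 7.24 FPKM with the combination (median 3.82), from 3.30 to 10.04 FPKM with Compound 1 (median 5.33) and from 4.43 to 9.97 FPKM with Vehicle (median 6.11). The lowest Vehicle rat lay above 7 of 9 Enalapril rats and 9 of 12 combination rats. Its log2 fold change was -0.63 (SE 0.14, limma adjusted p = 0.00303) with Enalapril and -0.78 (SE 0.18, adjusted p = 0.00144) with the combination.

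The 3 CD3 genes lie close together on rat chromosome 8, with Cd3d and Cd3g on opposite strands. Promoter sequence for the markers was taken from RefSeq (build GRCr8, 250 bases before to 50 after the start of transcription), and 6 of the 9 symbols had an entry: Cd3e, Cd3d, Cd3g, Cd8a, Cd2 and Cd79a. The sequence AGGAAG, a core bound by ETS family factors, was found on either strand in the promoters of Cd3e, Cd3d, Cd3g and Cd79a. It is common, present in 34.5% of 33469 promoters of the same length, so its presence here sets these genes apart little. The stretches around it in the divergent pair Cd3d and Cd3g are printed below in the direction of each gene, with the match in capitals; in Cd3d the match is on the opposite strand and reads CTTCCT. They come from the promoters at chr8:54185269-54185568 (plus strand, Cd3d) and chr8:54183869-54184168 (minus strand, Cd3g).
Cd3d: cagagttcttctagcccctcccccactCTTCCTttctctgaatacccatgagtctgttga
Cd3g: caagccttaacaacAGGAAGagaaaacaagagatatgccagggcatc
Counted from the start of transcription, the match begins at -47 in Cd3d and at -236 in Cd3g. TGTGGT, a core bound by RUNX factors and present in 17.3% of promoters, was found in that of Cd2. The octamer ATGCAAAT, bound by OCT factors (1.78% of promoters), and the palindrome bound by EBF1 (0.834%) were in none of the 6 windows. No match of one motif overlapped that of another.

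Cd2, the adhesion molecule, ran from 3.36 to 6.20 FPKM with Enalapril (median 4.16), from 3.05 to 6.19 FPKM with the combination (median 3.74), from 3.78 to 9.28 FPKM with Compound 1 (median 6.43) and from 4.49 to 9.18 FPKM with Vehicle (median 6.79). Every Enalapril and every combination rat was below the Vehicle median, and 5 of 9 and 8 of 12 in that order were below the lowest Vehicle rat. The log2 fold change was -0.65 (SE 0.13, limma adjusted p = 0.000393) with the combination. With Enalapril it was -0.55 (SE 0.13, limma adjusted p = 0.00353), past the adjusted p and not past the fold.

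Cd8a, the alpha chain of CD8, ran from 1.84 to 3.61 FPKM with Enalapril (median 2.18), from 1.17 to 3.52 FPKM with the combination (median 2.35), from 1.93 to 3.79 FPKM with Compound 1 (median 3.26) and from 2.34 to 5.43 FPKM with Vehicle (median 3.85). It was the one marker for which all 12 Compound 1 rats were also below the Vehicle median, although 11 of those 12 lay within the Vehicle range. The log2 fold change was -0.63 (SE 0.15, limma adjusted p = 0.00457) with Enalapril and -0.76 (SE 0.17, adjusted p = 0.00101) with the combination. With Compound 1 alone it was -0.28 (SE 0.13), with an unadjusted p of 0.0420 and a limma adjusted p of 0.356.

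Cd4 stood at a higher level than the other T cell transcripts. It ran from 30.6 to 45.7 FPKM with Enalapril (median 39.2), from 27.7 to 45.1 FPKM with the combination (median 34.4), from 33.2 to 66.9 FPKM with Compound 1 (median 51.5) and from 36.2 to 70.7 FPKM with Vehicle (median 52.1). Every Enalapril and combination rat was below the Vehicle median. The log2 fold change was -0.46 (SE 0.10, limma adjusted p = 0.00215) with Enalapril and -0.58 (SE 0.10, adjusted p = 9.04e-05) with the combination. Neither reached the fold threshold, so Cd4 was not a DEG, although its adjusted p with the combination was the smallest of the 8 markers.

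Cd79b, the signalling chain of the B cell receptor, had the largest decrease of the 8 with Enalapril. It ran from 1.25 to 4.01 FPKM with Enalapril (median 2.07), from 1.56 to 5.11 FPKM with the combination (median 2.31), from 3.28 to 7.94 FPKM with Compound 1 (median 4.21) and from 3.11 to 6.60 FPKM with Vehicle (median 4.6). Below the lowest Vehicle rat lay 6 of 9 Enalapril rats, 8 of 12 combination rats and 0 of 12 Compound 1 rats. The mean was 2.31 ± 1.05 FPKM with Enalapril, 2.80 ± 1.15 FPKM with the combination, 4.77 ± 1.62 FPKM with Compound 1 and 4.66 ± 1.35 FPKM with Vehicle (SD). The log2 fold change was -1.05 (SE 0.21, limma adjusted p = 0.00139) with Enalapril and -0.75 (SE 0.18, adjusted p = 0.00218) with the combination, and in rats given Compound 1 it was 0.02, with an interval from -0.33 to 0.37.

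Ms4a1 was the scarcest marker. It ran from 0.461 to 1.33 FPKM with Enalapril (median 0.850), from 0.324 to 1.39 FPKM with the combination (median 0.664), from 0.442 to 1.57 FPKM with Compound 1 (median 1.19) and from 0.305 to 2.17 FPKM with Vehicle (median 1.23). The Vehicle range holds every other rat. The log2 fold change was -0.74 (SE 0.26, limma adjusted p = 0.0239) with the combination. With Enalapril it was -0.42 (SE 0.28, limma adjusted p = 0.252) and its interval from -1.01 to 0.16 spans 0. A pseudocount of 0.1 weighs on a transcript this low, so its fold change is understated.

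Cd79a itself was not analysed here. RefSeq gives Cd79al as a synonym of Cd79a, and the file has a row under that symbol, which was not counted as a member. Its values were under 0.01 FPKM in 6 of 9 Enalapril rats, 7 of 12 combination rats, 5 of 12 Compound 1 rats and 7 of 11 Vehicle rats, and reached 2.11, 2.02, 2.03 and 4.68 FPKM in the highest rat of those groups. Values that jump from near 0 to above 1 within a group give no usable level, and no comparison is drawn from them.

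**Figure D2:**
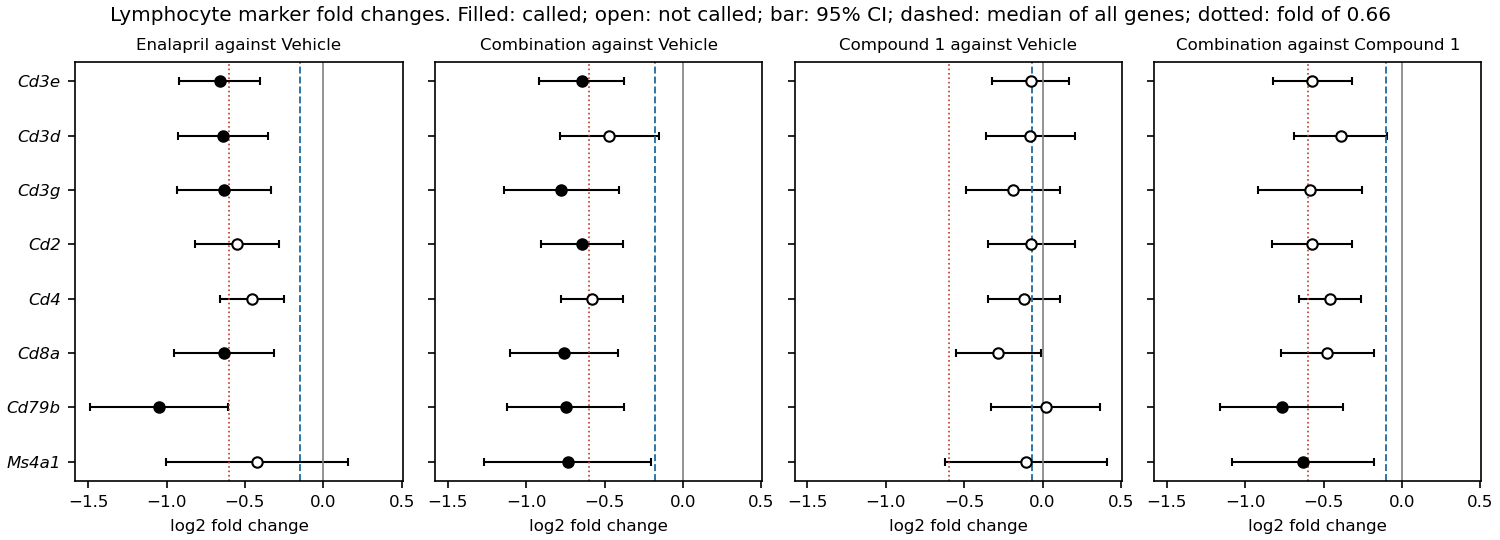
Log2 fold change of each marker (points) with its 95% confidence interval (bars) in 4 comparisons, from limma on log2(FPKM + 0.1); filled points are DEGs, the dashed line is the median of all genes and the dotted line a fold of 0.66. The points lie between -1.05 and -0.42 for Enalapril, between -0.78 and -0.47 for the combination, and between -0.28 and 0.02 for Compound 1 against Vehicle, and many lie close to the fold threshold.

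Because many estimates lay close to the fold threshold, the number of DEGs among the markers moved with single rats. With Enalapril it ran from 3 to 6 when each rat was left out in turn. Cd3d was no longer a DEG without Vehicle rat 1006 or 1010 or Enalapril rat 2001 or 2008, with log2 fold changes between -0.60 and -0.58. Cd3g was lost without Vehicle rat 1003 or 1007 or Enalapril rat 2001, between -0.58 and -0.57, and Cd8a without Vehicle rat 1006 or 1007 or Enalapril rat 2008 or 2005, between -0.60 and -0.58. In each of these fits the limma adjusted p stayed at or below 0.0111, so it was the fold and not the p that was missed. Cd3e and Cd79b kept their call in every fit that left out 1 rat. With the Vehicle rats 1003 and 1004 left out together, 1 marker was a DEG with Enalapril, Cd79b (-0.97), and Cd3e had -0.59 (limma adjusted p = 0.00265). With the combination the number ran from 5 to 7: Cd3e was lost without combination rat 4001 (log2 fold change -0.58) and Cd2 without Vehicle rat 1003 (-0.60). Without both Vehicle rats 1003 and 1004, 4 of 8 markers were DEGs with the combination, where 4.7% of all entries were lower.

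Judged by the adjusted p alone, 7 of 8 markers were lower with Enalapril (all but Ms4a1), 8 of 8 with the combination and 7 of 8 in the combination against Compound 1, where 26.6%, 39.3% and 17.4% of all entries were lower. The background is then high, and the median log2 fold change of all entries was negative in each of these comparisons. When libraries were scaled by median of ratios, which brings the median entry close to 0, and again with no fold threshold, 7 of 8, 6 of 8 and 6 of 8 were lower, against 9.66%, 15.3% and 9.45% of all entries. The pairing of this scaling with no fold threshold was chosen after the data were seen. With the rescaling and the fold threshold together, Cd79b (-0.90) was the only DEG with Enalapril and Cd3g (-0.61) the only DEG with the combination, where 1.22% and 2.31% of all entries were lower.

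Libraries differed in the share of FPKM taken by the mitochondrially encoded transcripts, which was 32.8 ± 5.90% with Enalapril, 32.1 ± 4.84% with the combination, 30.2 ± 3.96% with Compound 1 and 27.5 ± 5.38% with Vehicle (SD). A larger share leaves less FPKM for every other gene. With these transcripts taken out before scaling, Cd3e had log2 fold changes of -0.55 with Enalapril (limma adjusted p = 0.00669) and -0.55 with the combination (adjusted p = 0.00431), and Cd79b had -0.94 (adjusted p = 0.00219) and -0.66 (adjusted p = 0.00880). The number of DEGs among the markers was then 1 of 8 with Enalapril and 3 of 8 with the combination, where 1.72% and 3.62% of all entries were lower.

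The combination was also compared with Compound 1 alone, a comparison whose rats are all different from those of Enalapril against Vehicle. The fit held all 4 groups, so its SE and p-values draw on the spread of the Enalapril and Vehicle rats as well. All 8 markers had negative estimates, with a median log2 fold change of -0.57 beside -0.10 for all genes. Of the 8, 2 were DEGs, Cd79b and Ms4a1, both lower with the combination, where 2.05% of all entries were. Cd79b had a log2 fold change of -0.77 (SE 0.19, limma adjusted p = 0.00471), and 10 of 12 combination rats lay below the lowest Compound 1 rat. Ms4a1 had -0.63 (SE 0.23, limma adjusted p = 0.0387), and 11 of 12 combination rats were below the Compound 1 median. Its call was lost in 11 of 24 fits that left out 1 rat (Compound 1 rats 3001, 3006, 3008, 3012, 3102 and 3103 and combination rats 4001, 4005, 4006, 4010 and 4012), with limma adjusted p up to 0.0757, and over these fits the number of DEGs ran from 1 to 5. Of the T cell markers, 3 lay just short of the fold threshold, Cd3e with -0.57 (adjusted p = 0.00176), Cd2 with -0.57 (adjusted p = 0.00190) and Cd3g with -0.59 (adjusted p = 0.0101), and became DEGs without some single rats: without Compound 1 rat 3010 they had -0.63, -0.64 and -0.65. Cd4 and Cd2 were below the Compound 1 median in all 12 combination rats. The others lay further from it, Cd8a with -0.48 (limma adjusted p = 0.0178), Cd4 with -0.46 (adjusted p = 0.00136) and Cd3d with -0.39 (adjusted p = 0.0504).

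Enalapril against Compound 1 gave 1 DEG among the 8, Cd79b, with a log2 fold change of -1.07 (SE 0.21, limma adjusted p = 0.000697), where 1.89% of all entries were lower with Enalapril. Without Compound 1 rat 3010, Cd3e (-0.64) and Cd3d (-0.66) were DEGs as well. Of the 21 fits that left out 1 rat, Cd3e was a DEG in 7 and Cd3d in 3. The combination against Enalapril gave 0 of 8 in limma, with 0 at an unadjusted p under 0.05, where 0.00742% of all entries were called. Its estimates ran from -0.31 (Ms4a1, interval from -0.80 to 0.18) to 0.30 (Cd79b, interval from -0.12 to 0.72). These intervals are wide enough to hold a difference past the fold threshold for both genes. The interaction of Enalapril and Compound 1, the combination less Compound 1 set against Enalapril less Vehicle, also gave 0 of 8, with 0 at an unadjusted p under 0.05, beside 0.00742% of all entries. Compound 1 was raised to 3 mg/kg/day when given alone and was 1 mg/kg/day in the combination. The interaction therefore cannot separate this difference in dose from a departure from the sum of the single effects. For Cd3e the interaction was 0.09 (SE 0.19) and for Cd79b 0.28 (SE 0.29) on the log2 scale.

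Some rats were high or low in most markers. In the Enalapril group rat 2001 was lowest in 4 of the 8 markers and above the group median in 0. In the combination group rat 4011 was above the median in all 8, and rats 4001 and 4010 in 0. Among the Compound 1 rats, 3010 was lowest in 6 and below the median in all 8, 3001 was highest in 4, and 3008 was above the median in all 8. Vehicle rat 1008 had the lowest Vehicle level of 6 markers, and Vehicle rat 1003 was above its group median in all 8. Other rats differed between the T and B cell markers: Enalapril rat 2012 was highest of its group in both Cd79b and Ms4a1 and above the group median in no other marker, and Enalapril rat 2010 was lowest in Cd79b and above the median in 5 markers.

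The relation between markers within groups was followed in 5 pairs, after the group mean was taken from each rat's log2 value, with permutation tests that shuffled rats within groups (44 rats, p adjusted over the 5 pairs). These tests set r against 0. The genes of a pair share the scaling of each library, and whether r exceeds that of unrelated genes was not tested. Cd3e and Cd79b had a Pearson r of 0.50 (permutation p = 0.000820, adjusted p = 0.00102) and a Spearman rho of 0.51 (permutation p = 0.000660, adjusted p = 0.000825). Without rats 4001 and 4011, which lie farthest out in Cd3e, r was 0.43. Within the groups r was 0.09 with Enalapril, 0.69 with the combination, 0.70 with Compound 1 and 0.45 with Vehicle. The Enalapril value rests on 9 rats, and whether r differs between groups was not tested. The B cell markers Cd79b and Ms4a1 had r = 0.44 (permutation p = 0.00257, which the adjustment leaves the same) and rho = 0.44 (permutation p = 0.00437, also the same after adjustment), and 0.43 without rats 2012 and 4007. Within the groups their r was 0.55, 0.17, 0.41 and 0.70 in the order Enalapril, combination, Compound 1 and Vehicle.

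Cd4 followed the macrophage transcript Cd68, which encodes a lysosomal glycoprotein, as well as the T cell transcript Cd3e. With Cd68 its r was 0.82 (permutation p = 1e-05, the smallest the resampling allows, adjusted p = 2.5e-05) and rho 0.83 (permutation p = 1e-05, adjusted p = 2.5e-05), and r was 0.78 without rats 1008 and 3010. With Cd3e its r was 0.64 (permutation p = 2e-05, adjusted p = 3.33e-05) and rho 0.63 (permutation p = 1e-05, adjusted p = 2.5e-05), and 0.67 without rats 4001 and 4011. Within the groups, r of Cd4 with Cd68 was 0.46 with Enalapril, 0.87 with the combination, 0.93 with Compound 1 and 0.81 with Vehicle, and r of Cd4 with Cd3e was 0.33, 0.39, 0.89 and 0.80 in the same order. Whether the 2 coefficients differ was not tested. Cd68 was 28.4 ± 4.27 FPKM with Enalapril, 28.9 ± 6.91 FPKM with the combination, 39.1 ± 8.42 FPKM with Compound 1 and 45.5 ± 10.7 FPKM with Vehicle (SD), with log2 fold changes against Vehicle of -0.66 (SE 0.12, limma adjusted p = 0.000792) with Enalapril and -0.66 (SE 0.13, adjusted p = 0.000486) with the combination.

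**Figure D3:**
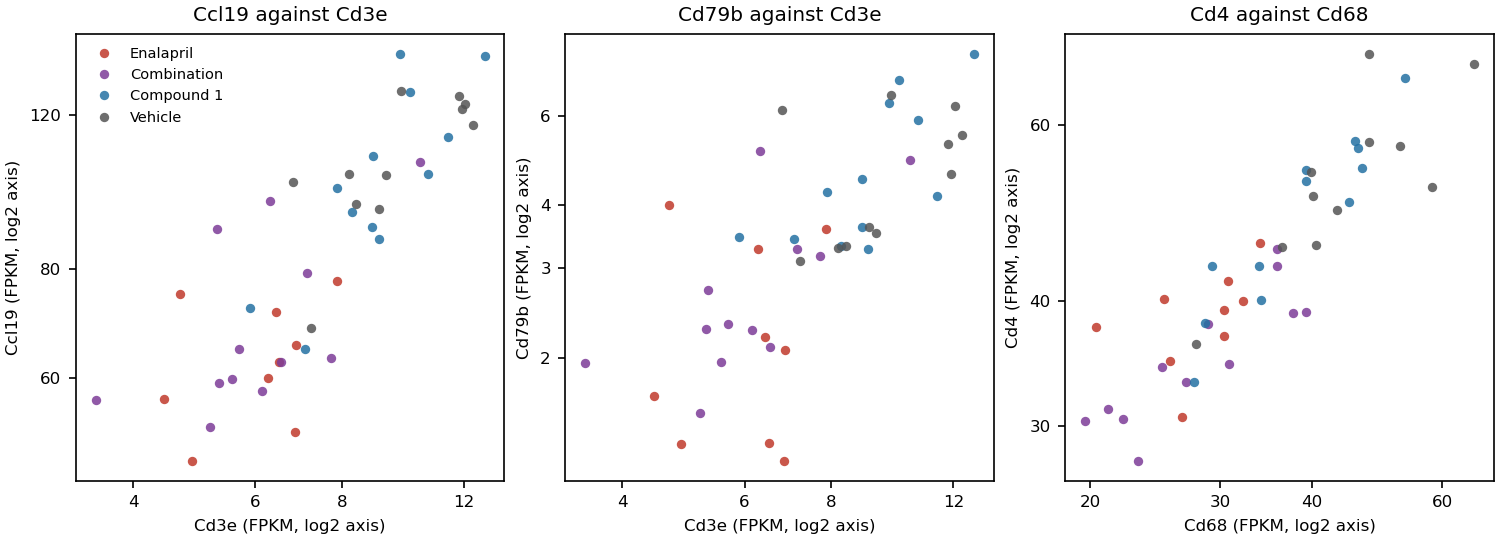
Levels of Ccl19 against Cd3e, Cd79b against Cd3e and Cd4 against Cd68 in FPKM on log2 axes, 1 point per rat, coloured by group (Enalapril n = 9, combination n = 12, Compound 1 n = 12, Vehicle n = 11). Points of the Enalapril and combination groups lie mostly at the lower left, and within groups the pairs had r of 0.65, 0.50 and 0.82 over 44 rats.

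To see whether lymphocyte transcripts changed more than those of leukocytes in general, ratios within each rat were compared by permutation tests of their log2 means (two-sided, exact for Enalapril, 100000 resamples otherwise, 20 tests adjusted together, all chosen after the data were seen). No ratio passed the adjustment. Cd3e over Ptprc, which encodes the pan-leukocyte phosphatase CD45, had a median of 0.687 with Enalapril, 0.944 with the combination, 0.881 with Compound 1 and 0.753 with Vehicle, and the log2 difference from Vehicle was -0.17 with Enalapril (exact permutation p = 0.348, adjusted p = 0.573) and 0.14 with the combination (permutation p = 0.369, adjusted p = 0.573). Cd79b over Ptprc was lower with Enalapril than with Vehicle by the unadjusted test alone, with a median of 0.284 with Enalapril and 0.332 with Vehicle and a log2 difference of -0.59 (exact permutation p = 0.0133, adjusted p = 0.267). Below the Vehicle median lay 8 of 9 Enalapril rats. With the combination the log2 difference of this ratio from Vehicle was 0.03 (permutation p = 0.904, adjusted p = 0.904). Cd4 over Cd3e had log2 differences from Vehicle of 0.21 with Enalapril (exact permutation p = 0.0580, adjusted p = 0.387) and 0.07 with the combination (permutation p = 0.555, adjusted p = 0.653). Cd4 over Cd68 was higher with Enalapril than with Vehicle by 0.20 (exact permutation p = 0.0407, adjusted p = 0.387), with 8 of 9 rats above the Vehicle median, and by 0.07 with the combination (permutation p = 0.372, adjusted p = 0.573). Cd79b over Cd3e, the balance of B to T cell markers, differed by -0.42 with Enalapril (exact permutation p = 0.105, adjusted p = 0.401) and by -0.12 with the combination (permutation p = 0.483, adjusted p = 0.653).

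Other genes of the T cell receptor pathway were followed in a list of 22, of which 17 were tested. With Enalapril 8 were lower and 0 higher, and with the combination 9 were lower and 0 higher, where 4.04% and 6.39% of all entries were lower. The median log2 fold change of the list was -0.53 for Enalapril and -0.66 for the combination. With Enalapril the largest decreases were those of Ptprcap, which encodes a partner of CD45, with a log2 fold change of -0.78 (SE 0.17), Cd5 (-0.78, SE 0.16) and Cd6 (-0.70, SE 0.14), scavenger receptor family proteins of T cells, and Icos (-0.75, SE 0.18), a costimulatory receptor. With the combination they were Cd27 (-0.98, SE 0.26), a costimulatory receptor of the TNF receptor family, Il7r (-0.94, SE 0.21), the receptor for the survival cytokine IL-7, Cd5 (-0.84, SE 0.16) and Zap70 (-0.80, SE 0.19), the kinase recruited to the CD3 chains. Among cytotoxic and NK cell genes, beside the same shares of all entries, 5 of 8 tested were lower with Enalapril and 5 of 8 with the combination, and 0 were higher. They included Cst7, an inhibitor of granule proteases (-0.87, SE 0.16, with Enalapril and -0.79, SE 0.17, with the combination), Klrk1, which encodes the activating receptor NKG2D (-0.61, SE 0.16, and -0.91, SE 0.17), and Prf1, the pore-forming perforin (-0.72, SE 0.19, with Enalapril).

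Among 14 tested genes of the B cell receptor pathway, 3 were lower with Enalapril and 6 with the combination, and 0 were higher. Of all entries, 4.04% and 6.39% were lower. Cd22, an inhibitory receptor of B cells, had -0.89 (SE 0.17) with Enalapril and -0.72 (SE 0.16) with the combination. Fcer2, the low-affinity IgE receptor CD23, had -0.75 (SE 0.19) with Enalapril and -0.998 (SE 0.25) with the combination, and Spib, a B cell transcription factor, had -0.69 (SE 0.24) with Enalapril. Fcer2 (-0.87, SE 0.22) was also lower in the combination against Compound 1, where 3 of 14 were, beside 2.05% of all entries. Of 10 tested plasma cell genes, 1 was lower with Enalapril (Sdc1, which encodes syndecan-1, -0.61, SE 0.12) and 2 with the combination (Sdc1, -0.70, SE 0.12, and the transcription factor Irf4, -0.83, SE 0.14), beside 4.04% and 6.39% of all entries. The plasma cell medians were -0.30 with Enalapril and -0.34 with the combination, closer to the medians of all genes than those of the T and B cell lists. Sdc1 is also made by epithelial cells.

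These counts, too, depended on the scaling. With median of ratios, an alternative for the lists that was chosen after the data were seen, the genes called lower with Enalapril and with the combination numbered 3 and 4 of 17 for the T cell receptor list, 1 and 2 of 8 for cytotoxic and NK cells, 2 and 2 of 14 for B cells and 0 and 1 of 10 for plasma cells, beside 1.22% and 2.31% of all entries. None of these genes was called higher. Without a fold threshold under that scaling, the T cell receptor list had 9 and 13 lower genes and the B cell list 5 and 10, to be read beside the shares of all entries given above for that rule, and 1 gene of the T cell receptor list was higher with the combination.

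Chemokines, their receptors and adhesion molecules that draw lymphocytes into tissue gave 8 lower of 19 tested with Enalapril and 10 of 19 with the combination, and 0 higher. Of all entries, 4.04% and 6.39% were lower. With median of ratios the counts of this list became 2 and 4 of 19, beside 1.22% and 2.31% of all entries. Ccl19, which draws T cells and dendritic cells through CCR7, ran from 48.2 to 77.6 FPKM with Enalapril (median 62.5), from 52.7 to 106 FPKM with the combination (median 62.9), from 64.8 to 141 FPKM with Compound 1 (median 101) and from 68.4 to 128 FPKM with Vehicle (median 103). Its log2 fold change was -0.76 (SE 0.11, limma adjusted p = 0.000163) with Enalapril and -0.62 (SE 0.12, adjusted p = 0.000279) with the combination. Ccl21, the second ligand of CCR7, had -0.82 (SE 0.18, limma adjusted p = 0.00241) and -0.67 (SE 0.16, adjusted p = 0.00210), and Cxcl13, which draws B cells into follicles, had -0.60 (SE 0.17, adjusted p = 0.00958) and -0.96 (SE 0.15, adjusted p = 5.44e-05). With Compound 1 alone none of the 3 was called, at log2 fold changes of -0.07, -0.16 and -0.33. Another chemokine of the list, Cxcl10, which draws activated T cells through CXCR3, had -0.51 (SE 0.09, limma adjusted p = 0.00266) with Compound 1, past the adjusted p and not past the fold. Within groups Ccl19 followed Cd3e, with r = 0.65 (permutation p = 1e-05, the smallest possible, adjusted p = 2.5e-05) and rho = 0.60 (permutation p = 3e-05, adjusted p = 5e-05) over 44 rats. Without rats 4001 and 4011 r was 0.60, and within the groups it was 0.33 with Enalapril, 0.59 with the combination, 0.81 with Compound 1 and 0.76 with Vehicle. Both genes share the scaling of each library, and other genes, such as Tubb5 (0.75), had a higher r with Cd3e.

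The genes whose within-group pattern over the 44 rats was most like that of Cd3e were Tubb5 (Pearson r 0.75), Bak1 (0.73), Arhgdib (0.71), Emp3 (0.71) and Fxyd5 (0.71). Those most like Cd79b were Fkbp10 (0.79), Ccl19 (0.78), Calhm2 (0.76), Pld4 (0.76) and Efhd2 (0.75). These coefficients describe the same libraries as the markers and share their scaling. Tubb5 encodes a beta tubulin, while Fkbp10 encodes a chaperone of collagen. Of the 10 genes, 4 were DEGs with Enalapril (Tubb5, Emp3, Fkbp10 and Ccl19) and 1 with the combination (Ccl19), all lower, where 4.04% and 6.39% of all entries were lower.

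Transcripts of other cell types moved beside those of lymphocytes. Of 14 tested macrophage and monocyte genes, 6 were lower with Enalapril and 8 with the combination (median log2 fold changes of -0.59 and -0.62), and of 11 pan-leukocyte genes 4 and 4 were lower. Of all entries, 4.04% and 6.39% were lower. With median of ratios 0 and 2 of the 14 and 1 and 1 of the 11 were lower, beside 1.22% and 2.31% of all entries. The summed level of the 15 macrophage genes in the file ran from 678 to 1404 FPKM with Enalapril, from 797 to 1356 FPKM with the combination, from 897 to 2011 FPKM with Compound 1 and from 1107 to 2263 FPKM with Vehicle. Fibroblast genes had 4 of 7 lower with Enalapril and 3 of 7 with the combination, among them Col3a1 (-0.77, SE 0.13, and -0.78, SE 0.12). With median of ratios 3 and 2 of the 7 fibroblast genes were lower. The 10 proximal tubule genes went the other way, with 2 higher and 0 lower in each comparison (Slc7a13 and Pck1), and their summed level ran from 4651 to 6029 FPKM with Enalapril, from 4430 to 5934 FPKM with the combination, from 1726 to 5473 FPKM with Compound 1 and from 2396 to 4650 FPKM with Vehicle. Of all entries, 0.49% and 0.994% were higher. With median of ratios 3 and 4 of the 10 were higher, beside 205 and 337 of 13482 entries. Red cell genes, a sign of blood held in the tissue, gave 0 of 5 called in limma, with 0 at an unadjusted p under 0.05 for Enalapril and 2 for the combination, and had summed medians of 2700, 2729, 2010 and 2129 FPKM in the order Enalapril, combination, Compound 1 and Vehicle. Neutrophil genes were scarce, with 0 of 3 tested lower in limma for Enalapril (1 at an unadjusted p under 0.05) and 1 of 3 lower for the combination, with Mpo and Elane under 0.1 FPKM on average and summed medians of 3.63, 4.00, 6.14 and 6.10 FPKM in that order. Adipocyte genes gave 1 lower of 3 tested with Enalapril, and 1 lower and 1 higher with the combination, while limma called none of the 5 urothelial and 6 podocyte genes in either comparison (at an unadjusted p under 0.05, 0 urothelial genes in both, and 4 podocyte genes with Enalapril and 1 with the combination). What part these other cell types have in the levels of the lymphocyte markers was not tested.

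**Figure D4:**
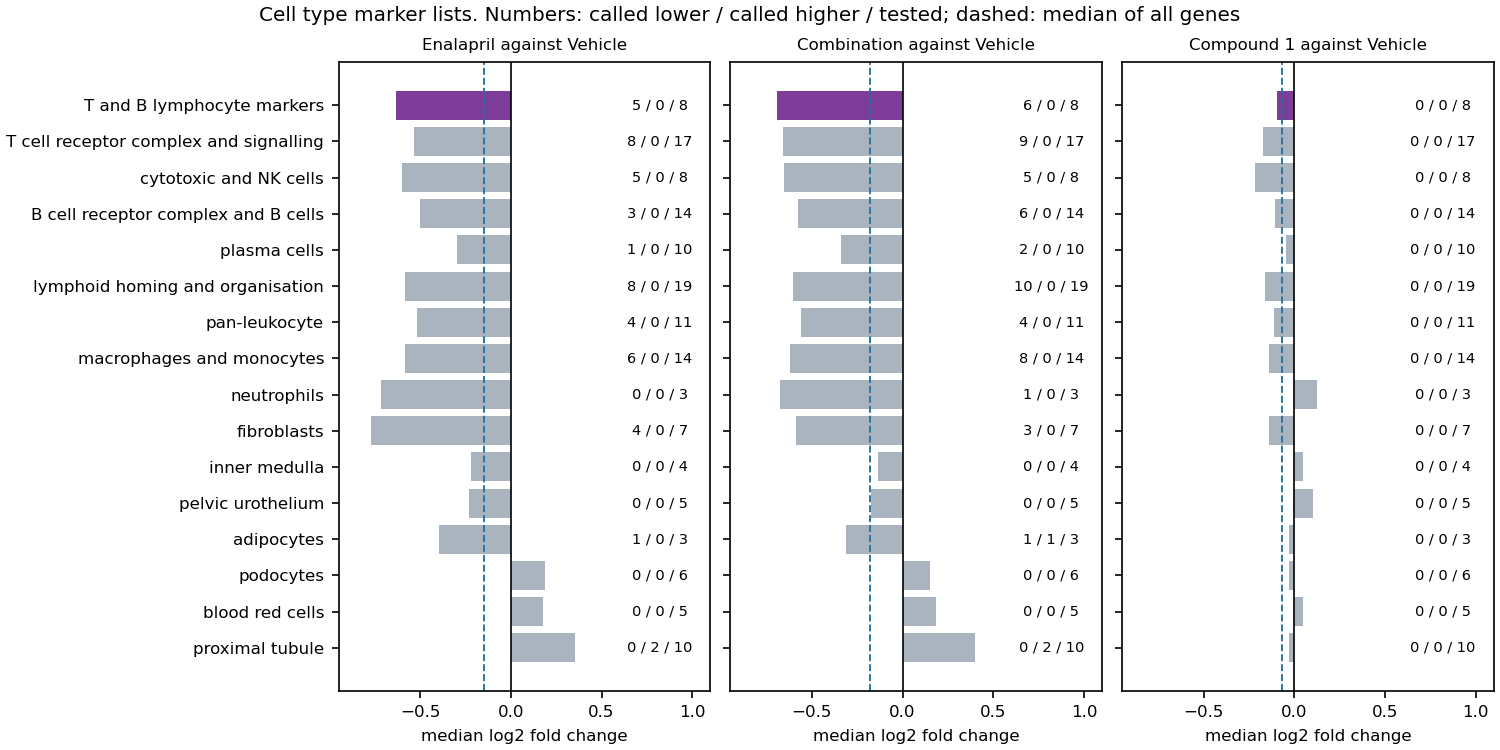
Median log2 fold change (bars) of the lymphocyte markers and of 15 lists of cell type genes against Vehicle, with the numbers of genes called lower, called higher and tested at the right and the median of all genes as a dashed line. From the Enalapril to the Compound 1 panel the lymphocyte bar is at -0.63, -0.69 and -0.09, next to -0.59, -0.62 and -0.14 for macrophages and monocytes and 0.35, 0.40 and -0.03 for the proximal tubule.

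Medulla and cortex differ in their immune cells, so the amount of medulla in a sample was followed through 4 transcripts of the inner medulla. None of the 4 was called by limma against Vehicle, although 1 had an unadjusted p under 0.05 in each comparison, and their summed level ran from 48.1 to 97.2 FPKM with Enalapril, from 54.7 to 142 FPKM with the combination, from 68.6 to 137 FPKM with Compound 1 and from 63.2 to 146 FPKM with Vehicle. With their mean as a covariate, 1 of 8 markers was a DEG with Enalapril (Cd79b) and 2 of 8 with the combination (Cd3g and Cd8a), where 1.86% and 5.16% of all entries were lower. With the covariate and no fold threshold, an alternative chosen after the data were seen, 7 of 8 markers were lower with Enalapril and 6 of 8 with the combination, where 10.7% and 37.9% of all entries were. With the covariate Cd3e had log2 fold changes of -0.54 (limma adjusted p = 0.0141) with Enalapril and -0.59 (adjusted p = 0.00224) with the combination, and Cd79b had -0.88 (adjusted p = 0.0204) and -0.55 (adjusted p = 0.00719), so that Cd3e in both comparisons and Cd79b with the combination missed the fold. With Compound 1, 0 of the 135 tested genes of the lists were called by limma and 21 had an unadjusted p under 0.05, a share of the list genes to be read beside 13.3% of all entries.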

How the data were processed

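Kidney mRNA libraries, stranded and 1 per rat, were made from 44 rats, and the authors deposited FPKM per gene. The genome build was rn6 according to the submitters' processing notes, and the name of the aligner is not given in the sources used here. Deposited FPKM carry no read totals, so the depth of each library is unknown and no counting interval is given. The number of genes above 1 FPKM ran from 12490 to 12900 in the Enalapril libraries, 12503 to 13076 with the combination, 12524 to 13207 with Compound 1 and 12938 to 13407 with Vehicle.

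FPKM were tested as log2(FPKM + 0.1) with limma 3.58.1 (mean-variance trend) in R 4.3.3, on entries above 1 FPKM in at least 9 rats. Adding 0.1 understates the fold of low genes. Treatments were compared with Vehicle on the 2 groups concerned, as in the study, and all other comparisons and the interaction came from a fit of all 4 groups. The p-values compare rats, each of which gave 1 sample. Permutation tests, ratios and correlations used Python 3.11.15, numpy 2.4.6, pandas 2.3.3 and scipy 1.17.1. The limma code was first run on residuals of these libraries, shuffled between rats, with known folds added. The permutation test of the ratios was also run on values drawn from normal distributions.

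The members, the gene lists and the tests were chosen with earlier results of these data known. All members are described. Of each list, up to 4 called genes of largest fold are named, and with each of Cd3e and Cd79b the 5 genes of highest within-group correlation. Cd79b took the place of Cd79a in the pairs and in the search for like genes, since no row has that symbol. The genes in the ratios, and Cxcl10 for Compound 1, were chosen after values were seen. In the file 2 columns that could be matched to no sample were not used. Results were recomputed with 1 or 0.01 added to FPKM, with the filter removed or raised to 5 FPKM, with median of ratios, quantile normalization, no mitochondrial transcripts, no fold threshold, sample weights, a covariate for the inner medulla, other rats in the fit, and leaving out rats singly or in sets. Results that rest on some genes are left out of the text.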

Additional observations from a re-analysis of the deposited data

How the results depend on the processing

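No paired analysis was possible because every rat belongs to 1 group and animal numbers are not shared between groups. Of 8 markers lower with Enalapril than with Vehicle, 5 were called, but 1 with a pseudocount of 1, median of ratios, quantile normalization, no mitochondrial transcripts, the inner medulla covariate or without Vehicle rats 1003 and 1004, and 2 with sample weights. In that order 1.54%, 1.22%, 1.05%, 1.72%, 1.86%, 2.44% and 2.8% of all entries were lower, beside 4.04% for the 5 calls. Leaving out 1 rat gave 3 to 6. For the combination against Vehicle the 6 calls became 1 with a pseudocount of 1 or median of ratios, 0 with quantile normalization (limma), 3 without mitochondrial transcripts and 2 with the covariate. In that order 2.64%, 2.31%, 1.65%, 3.62% and 5.16% of all entries were lower, beside 6.39% for the 6 calls. The 6 calls became 4 without Vehicle rats 1003 and 1004 and 5 with sample weights, where 4.7% and 6.15% of all entries were lower. Leaving out 1 rat gave 5 to 7. For the combination against Compound 1 the 2 calls became 1 with a pseudocount of 1, no filter, a filter of 5 FPKM, median of ratios, quantile normalization, no mitochondrial transcripts, the covariate or without rats 2103 and 3102 to 3105. In that order 0.719%, 1.75%, 1.14%, 1.09%, 0.801%, 1.54%, 1.3% and 2.01% of all entries were lower, beside 2.05% for the 2 calls. The 2 calls became 4 with sample weights, 7 with no fold threshold, and 6 with no fold threshold under median of ratios or the covariate. Of all entries, 3.18%, 17.4%, 9.45% and 12.5% were then lower. Leaving out 1 rat gave 1 to 5. For Enalapril against Compound 1 the 1 call became 5 with no fold threshold, 4 with that and median of ratios, 2 with that and the covariate, 2 without rats 2103 and 3102 to 3105 and 3 without the 6 rats listed last. In that order 10.9%, 7.62%, 4.52%, 2.46% and 2.54% of all entries were lower, beside 1.89% for the 1 call. Leaving out 1 rat gave 1 to 3. The cause was not tested.

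Changes of sign touched only log2 values near 0 that were not called. For Compound 1 against Vehicle they were Cd2 with median of ratios (0.000511) and quantile normalization (0.0150), Cd3e (0.0103) and Cd3d (0.00846) with quantile normalization, and Ms4a1 with sample weights (0.0638) or without Vehicle rats 1003 and 1004 (0.0601). For the combination against Enalapril they were Cd3e without mitochondrial transcripts (-0.00206) or with the covariate (-0.0298), and Cd3g without the 6 rats listed last (0.0317). For the interaction they were Cd3g with median of ratios (-0.00393), no mitochondrial transcripts (-0.0187) or sample weights (-0.0224), and Cd2 without rats 2103 and 3102 to 3105 (0.0168). Leaving out 1 rat, Cd3d ran from -0.136 to 0.0161 and Cd79b from -0.0516 to 0.0746 for Compound 1 against Vehicle, Cd3e from -0.0563 to 0.0827 for the combination against Enalapril, and Cd3g from -0.0388 to 0.134, Cd4 from -0.0541 to 0.0490 and Cd2 from -0.0872 to 0.0361 for the interaction.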
